A study of Mus musculus with 8 samples.

Results

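The arrays described here compared primary mouse hepatocytes that received glucagon and GW4064 at the same time with hepatocytes that received only the solvent DMSO. The members were chosen by their titles: 2 arrays labelled with both agents and 2 labelled DMSO, 4 of the 8 arrays in the series, matched by the number of the experiment. The combined group received 100 nM glucagon and 2 µM GW4064 for 6 h, and the DMSO group received solvent for the same time. All cells came from male C57BL/6J mice and stood in low-glucose medium with bovine serum albumin, glutamine and 100 nM dexamethasone, a synthetic glucocorticoid that the controls therefore carried too. Each experiment used hepatocytes pooled from 3 mice, and 2 technical replicates were pooled for each array, so a group holds 2 separate cell pools (n = 2). The arrays of glucagon alone and of GW4064 alone are used below only where they show how the combined treatment differs from its parts. Transcripts were measured on the Affymetrix MoGene 2.0 ST array, a single-channel whole-transcript array, and all levels are log2 signals.

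Glucagon is the pancreatic hormone of fasting. Its receptor in hepatocytes, encoded by Gcgr, raises cyclic AMP, which activates protein kinase A, and this leads to phosphorylation of the transcription factor CREB and to entry of its CRTC coactivators into the nucleus. Genes of glucose production and amino acid breakdown are its known liver targets. GW4064 is a small molecule made to activate FXR, the farnesoid X receptor encoded by Nr1h4. This nuclear receptor senses bile acids and is known to induce the repressor Nr0b2 and the bile salt export pump Abcb11 in liver.

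With both agents, the genes that rose most included those of glucose production (Pck1, G6pc) and of the cyclic AMP response (Nr4a3, Ppargc1a, Rgs2). Also among them were genes of ornithine and amino acid metabolism (Slc25a15, Mat1a, Aass) and Etnppl, of phosphoethanolamine breakdown. Pck1 was 40.7-fold above DMSO, with 1 DMSO array at a signal as low as the array medians, and G6pc was 16.5-fold above. Among the genes that passed, the growth hormone feedback gene Socs2 had the largest fall, to a level 5.46-fold below DMSO on its brightest probe set. The FXR-induced genes gave 0 calls among 18 tested members, with 5 members higher and 1 lower at an unadjusted p below 0.05 in limma, but 6 of 18 alternatives called between 1 and 6 of them. In all, 102 of 13845 genes passed, which is 0.737% of the genes tested. Of these, 71 rose (0.513%) and 31 fell (0.224%), in a limma fit with the experiment as a block and an adjusted p below 0.05 as the threshold. At an unadjusted p below 0.05 there were 1659 genes, 672 higher and 987 lower.

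The excess of rises among the calls was not a stable feature of the fit. Without the GW4064 array of experiment 2, which stood apart from the other arrays, 170 genes rose and 172 fell, and all 102 genes were among them. Without the block 17 genes rose (0.123%) and 0 fell (0%), all 17 of them among the 71. The hormone-responsive genes Pck1, G6pc, Ppargc1a, Slc25a15 and Aass passed in the fit reported here and in each of 18 alternatives. They are 5 of the 43 passing genes that were named by size, list or panel. Other genes named below were not part of this count.

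Among all 8 arrays the medians lay between 3.42 and 3.57. Any 2 of 7 arrays correlated at 0.976 to 0.997 over the tested genes, whereas the eighth, GW4064 in experiment 2, correlated with them at 0.975 to 0.985. The low-signal olfactory and vomeronasal receptor probe sets had a median of 3.25 on that array against 2.95 to 2.98 on the others. The part of that array's deviation in the calls was not tested, as leaving out the other GW4064 array instead gives the same fit. On the 4 arrays compared, of the 13 hepatocyte markers with a probe set, among them Alb for serum albumin and the liver transcription factor Hnf4a, 0 were at or below the filter level on all 4, and 0 of 13 passed the test in limma, with 1 higher at an unadjusted p below 0.05. Their summed log2 signals were 125.7 and 131.2 with DMSO and 127.6 and 131.5 with both agents. In bulk cells, a change in the number of cells of a type and a change in RNA per cell cannot be told apart.

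The sign of the difference was equal in the 2 experiments for all 102 genes and for 61.1% of all tested genes. Of the rises, 68 had both combined-treatment arrays above both DMSO arrays, an order that 16.9% of all tested genes had, and of the falls 27 had both below, against 21.9%. The other 7 overlapped between the groups because the cell pools differed in level. The spread between pools was large for some genes: in 19 of the 102 the DMSO arrays of the 2 experiments differed by more than 1 on the log2 scale. Of the rises, 51 were larger in experiment 1, as were 25 of the falls.

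**Figure D1:**
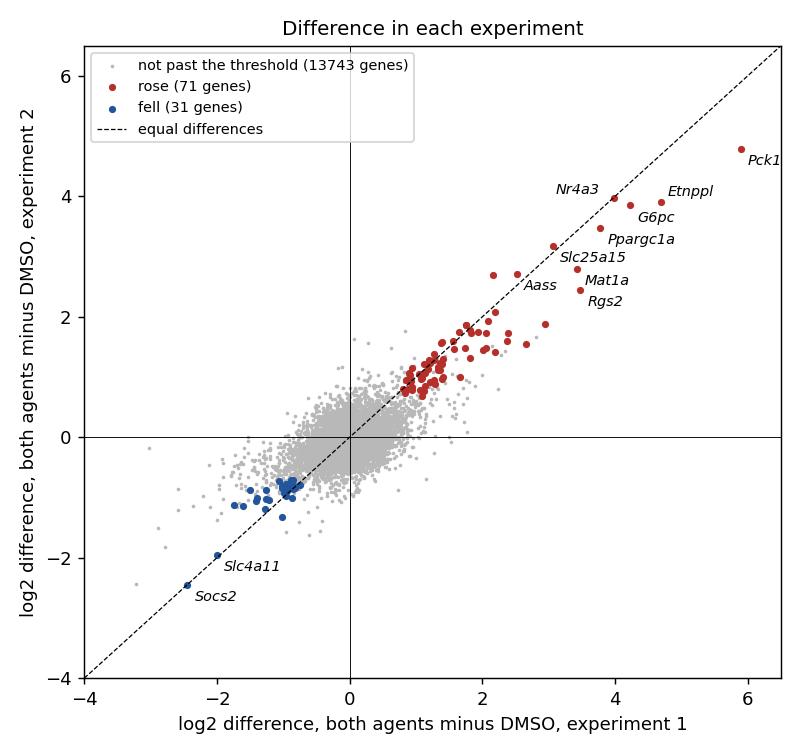
Log2 difference between both agents and DMSO in experiment 1 (horizontal axis) and experiment 2 (vertical axis), 1 point per tested gene, with the 71 rises in red, the 31 falls in blue and equal differences on the dashed line. The calls lie in the 2 quadrants of equal sign, from Socs2 at -2.45 in both experiments to Pck1 at 5.90 and 4.80.

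Sizes were unequal between the directions. Of the rises, 57 were above 2-fold, 15 above 4-fold and 7 above 8-fold, while 12 falls were above 2-fold and 1 above 4-fold. The median rise was 1.30 and the median fall -0.92 on the log2 scale. Large falls often did not pass: 69 genes had a difference below -1 and 12 of them passed, while 95 were above 1 and 57 passed. The uncalled falls of this size had a median SE of 0.31, against 0.12 among the genes that fell. For rises it was 0.26 against 0.13. A small SE helps a gene to pass, so such a gap follows in part from the threshold.

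Glucose production opened the list of rises. Pck1, the cytosolic phosphoenolpyruvate carboxykinase that commits oxaloacetate to gluconeogenesis (probe set 17380222), was at 3.49 and 4.79 on the DMSO arrays of experiments 1 and 2 and at 9.39 and 9.58 with both agents. The combined arrays lay close together, whereas the DMSO arrays were further apart, and the groups did not overlap. The DMSO level of experiment 1 lay within the range of the array medians, 3.42 to 3.57, so the fold there is set against little signal. The difference was 5.35 (SE 0.26, limma adjusted p = 0.000987). G6pc, the glucose-6-phosphatase catalytic subunit that frees glucose for export (probe set 17256707), went from 5.93 and 6.03 to 10.16 and 9.89. Both groups were tight and far apart, and the difference was 4.04 (SE 0.19, adjusted p = 0.000859).

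The list of gluconeogenesis enzymes had 17 tested members, of which 4 rose and 0 fell, with 8 higher and 2 lower at an unadjusted p below 0.05. Its median difference was 0.13, beside -0.02 over all tested genes. The other rises were in the aminotransferases that feed the pathway: Got1, for aspartate (10.49 and 10.33 to 11.76 and 11.71; difference 1.33, SE 0.12), and Gpt2, for alanine. Gpt2 was at 10.17 and 10.24 with DMSO and at 11.00 and 10.97 with both agents, a difference of 0.78 (adjusted p = 0.0452, and 0.116 without the block). Fbp1, the fructose bisphosphatase of the pathway, differed by 0.58 (SE 0.14, adjusted p = 0.175), and its lower combined array was just above its higher DMSO array, at 7.784 against 7.779. Pklr, the liver pyruvate kinase that runs the opposite way, differed by -0.20 (adjusted p = 0.537).

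The cyclic AMP response was uneven between its members. Nr4a3 and Nr4a1 are orphan nuclear receptors known as immediate targets of CREB. Nr4a3 (probe set 17413945) was at 3.25 and 3.07 with DMSO and at 7.23 and 7.05 with both agents, and as 1 DMSO array lay at or below the filter level, its difference of 3.98 (SE 0.27) is a lower limit. Nr4a1 went from 4.49 and 4.46 to 6.24 and 6.33, a difference of 1.81 (SE 0.11, adjusted p = 0.0016). In both genes the arrays of a group lay close together and the groups did not overlap.

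Ppargc1a encodes PGC-1alpha, the coactivator of gluconeogenic and mitochondrial genes. It was at 3.13 and 4.11 with DMSO, the first at the filter level, and at 6.91 and 7.59 with both agents. The difference of 3.63 (SE 0.14) is a lower limit, with an adjusted p of 0.000499. Irs2, an insulin receptor substrate and CREB target, went from 5.81 and 6.24 to 7.82 and 7.69 (1.73, SE 0.16, adjusted p = 0.0106). In the list of cyclic AMP and CREB targets these 4 of 24 tested members rose and 0 fell, 8 were higher and 4 lower at an unadjusted p below 0.05, and the median was -0.05.

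Feedback genes of the pathway also moved. Rgs2, a regulator that ends G protein signalling, was at 4.09 and 5.94 with DMSO and at 7.57 and 8.39 with both agents (2.96, SE 0.32, adjusted p = 0.0167, and 0.455 without the block). Its levels differed between the pools in both groups, yet both combined arrays exceeded both DMSO arrays. A second probe set of Rgs2 (17548932), at 3.17 and 3.11 with DMSO and 3.26 and 3.70 with both agents, was dimmer, and with the mean of the probe sets the rise was 1.65 (adjusted p = 0.00801). Sik1, a salt-inducible kinase that restrains the CRTC coactivators, went from 6.98 and 6.88 to 9.07 and 8.81 (2.01, SE 0.19, adjusted p = 0.0106, and 0.0748 without the block). These were 2 of 11 tested members of the feedback list. The repressor gene Crem differed by 0.29 (adjusted p = 0.479) and the phosphodiesterase Pde10a by 0.84 (adjusted p = 0.0629).

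In the list of the glucagon receptor and the protein kinase A cascade, 0 of 17 tested members passed in limma, with 1 higher and 0 lower at an unadjusted p below 0.05, and 3 of 18 alternatives called 1 member, Sik3, higher. Gcgr was at 5.18 and 5.60 with DMSO and at 5.40 and 5.63 with both agents, and its groups overlapped.

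**Figure D2:**
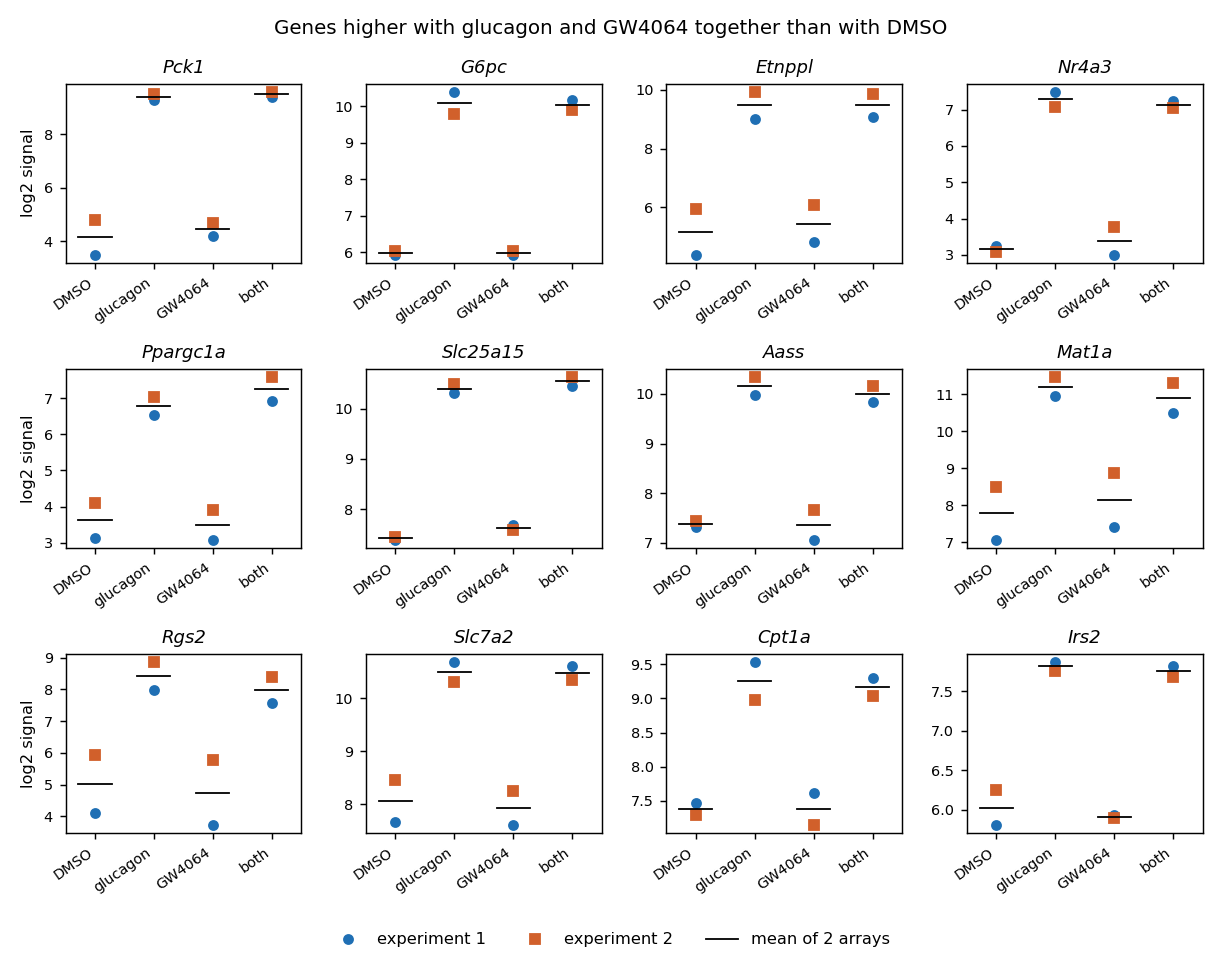
Log2 signal of 12 genes that rose, in DMSO, glucagon, GW4064 and combined arrays, with experiment 1 as circles, experiment 2 as squares and bars at the mean of 2 arrays; each panel has its own vertical axis, which does not start at 0. In all 12 panels both combined arrays lie above both DMSO arrays, for example at 9.39 and 9.58 against 3.49 and 4.79 for Pck1.

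The proximal promoters of the leading genes were read from RefSeq (GRCm38.p6) to show where the letters of the CREB half-site, TGACG or CGTCA on the other strand, lie near the start of genes that rose together. They are printed 5′ to 3′ on the gene's own strand in lower case, and capitals mark the half-site. For Pck1 the stretch is chr2:173152955-173153014 (plus strand, -118 to -59 from the start site). For Ppargc1a it is chr5:51567743-51567802 (minus strand, -77 to -18), and for Aass chr6:23132992-23133051 (minus strand, -65 to -6).
Pck1: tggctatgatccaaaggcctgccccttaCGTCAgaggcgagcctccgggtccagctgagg
Ppargc1a: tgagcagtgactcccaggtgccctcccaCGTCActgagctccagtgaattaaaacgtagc
Aass: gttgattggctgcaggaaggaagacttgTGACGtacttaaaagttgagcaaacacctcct
The 250 bases before the start of Nr4a3 (chr4:48045055-48045304, plus strand) and Nr4a1 (chr15:101266596-101266845, plus strand) hold 4 half-sites each, and those of G6pc (chr11:101367466-101367715, plus strand) hold 0. The windows of Etnppl, Slc25a15 and Il22ra1, which also rose, were read too. They hold 0 half-sites and are not printed.
Nr4a3: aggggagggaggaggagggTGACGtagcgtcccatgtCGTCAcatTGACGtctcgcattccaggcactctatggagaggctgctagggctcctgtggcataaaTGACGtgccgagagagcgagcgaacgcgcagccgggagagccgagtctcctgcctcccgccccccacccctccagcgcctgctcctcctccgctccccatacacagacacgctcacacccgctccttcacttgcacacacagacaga
Nr4a1: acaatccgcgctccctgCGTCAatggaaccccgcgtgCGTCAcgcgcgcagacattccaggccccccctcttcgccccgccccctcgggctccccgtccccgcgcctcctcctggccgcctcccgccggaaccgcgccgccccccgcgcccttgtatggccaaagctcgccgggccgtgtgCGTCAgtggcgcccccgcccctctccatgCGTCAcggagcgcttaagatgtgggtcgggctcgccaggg
G6pc: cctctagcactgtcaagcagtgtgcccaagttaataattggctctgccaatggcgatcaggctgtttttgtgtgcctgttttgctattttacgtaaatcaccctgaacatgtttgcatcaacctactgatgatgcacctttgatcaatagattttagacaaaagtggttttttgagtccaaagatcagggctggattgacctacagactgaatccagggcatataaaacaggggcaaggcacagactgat

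Across the genes with a promoter entry, 10 of 58 that rose (17.2%) and 3 of 23 that fell (13.04%) held TGACG on either strand in those 250 bases, against 27.4% of the 10743 tested genes with an entry. The full palindrome TGACGTCA, which contains the half-site on both strands, was in 0 of 58, in 1 of 23 (Lrrc8a, named after this was seen) and in 2.74% of all. The forkhead core TGTTTAC or GTAAACA was in 1 of 58, 1 of 23 and 3.0% of all. These are matches of letters in 1 short window and say nothing of binding there or farther away.

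The breakdown of ornithine, proline and other amino acids was the second group of rises. Slc25a15, the mitochondrial ornithine carrier of the urea cycle (probe set 17508036), was at 7.39 and 7.45 with DMSO and at 10.46 and 10.63 with both agents. Both groups were tight, the difference was 3.12 (SE 0.12, adjusted p = 0.000499), and it was 3.07 in experiment 1 and 3.18 in experiment 2. Oat, which turns ornithine into glutamate semialdehyde, went from 5.87 and 6.98 to 7.92 and 8.71 (1.89, SE 0.13, adjusted p = 0.00399, and 0.442 without the block).

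Slc25a22, a mitochondrial glutamate carrier, rose from 7.16 and 6.96 to 8.91 and 8.83 (1.81, SE 0.10). Aldh4a1, which finishes proline breakdown to glutamate, rose from 3.88 and 4.22 to 5.46 and 5.68 (1.52, SE 0.11, adjusted p = 0.00404, and 0.0676 without the block). Arg1, the arginase of the urea cycle, is a gene whose groups overlapped: it was at 8.64 and 9.98 in experiment 1 and at 10.05 and 11.22 in experiment 2, DMSO first in each (difference 1.25, adjusted p = 0.0143, and 0.899 without the block). Arg1 lies outside the naming rule and was named after its values were seen. In the urea cycle and ornithine list these 5 of 16 tested members rose and 0 fell, with 9 higher and 2 lower at an unadjusted p below 0.05, and the median was 0.34. Cps1, the first enzyme of the cycle, differed by 0.42 (adjusted p = 0.197).

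Etnppl, the phospholyase that breaks down phosphoethanolamine, was at 4.39 and 5.96 with DMSO and at 9.08 and 9.87 with both agents. Its difference of 4.30 (SE 0.20, adjusted p = 0.000859) was the second largest among the calls, and the adjusted p was 0.105 without the block. Mat1a, the liver methionine adenosyltransferase, went from 7.06 and 8.50 to 10.49 and 11.29 (3.11, SE 0.25, adjusted p = 0.0056, and 0.239 without the block). In both genes experiment 2 lay higher than experiment 1 in both groups, and the groups did not overlap.

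Aass, the entry enzyme of lysine breakdown, rose from 7.31 and 7.44 to 9.83 and 10.16 (2.62, SE 0.14, adjusted p = 0.00113). Hal, which deaminates histidine, went from 3.93 and 5.68 to 6.59 and 7.24 (2.11, SE 0.27, adjusted p = 0.0288, and 0.688 without the block). The fifth rise in the list was in Hgd of tyrosine breakdown (1.33, adjusted p = 0.039, and 0.77 without the block), named after its values were seen. Of 26 tested members of the amino acid breakdown list, which also holds Etnppl, 5 rose and 0 fell. In that list 12 were higher and 0 lower at an unadjusted p below 0.05, 23 had a positive difference, and the median was 0.35. Tat, the tyrosine aminotransferase known as a target of cyclic AMP and glucocorticoids, was at 11.12 and 11.49 with DMSO and at 12.26 and 12.26 with both agents, and its 0.96 did not pass (adjusted p = 0.0838). It passed in 4 of 18 alternatives.

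Among 17 tested amino acid transporters 1 rose. Slc7a2, which carries arginine, lysine and ornithine, was at 7.66 and 8.46 with DMSO and at 10.61 and 10.34 with both agents (2.42, SE 0.31, adjusted p = 0.0286, and 0.0676 without the block). Slc7a5, of the large neutral amino acid carrier, differed by -0.92 (adjusted p = 0.258).

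**Figure D3:**
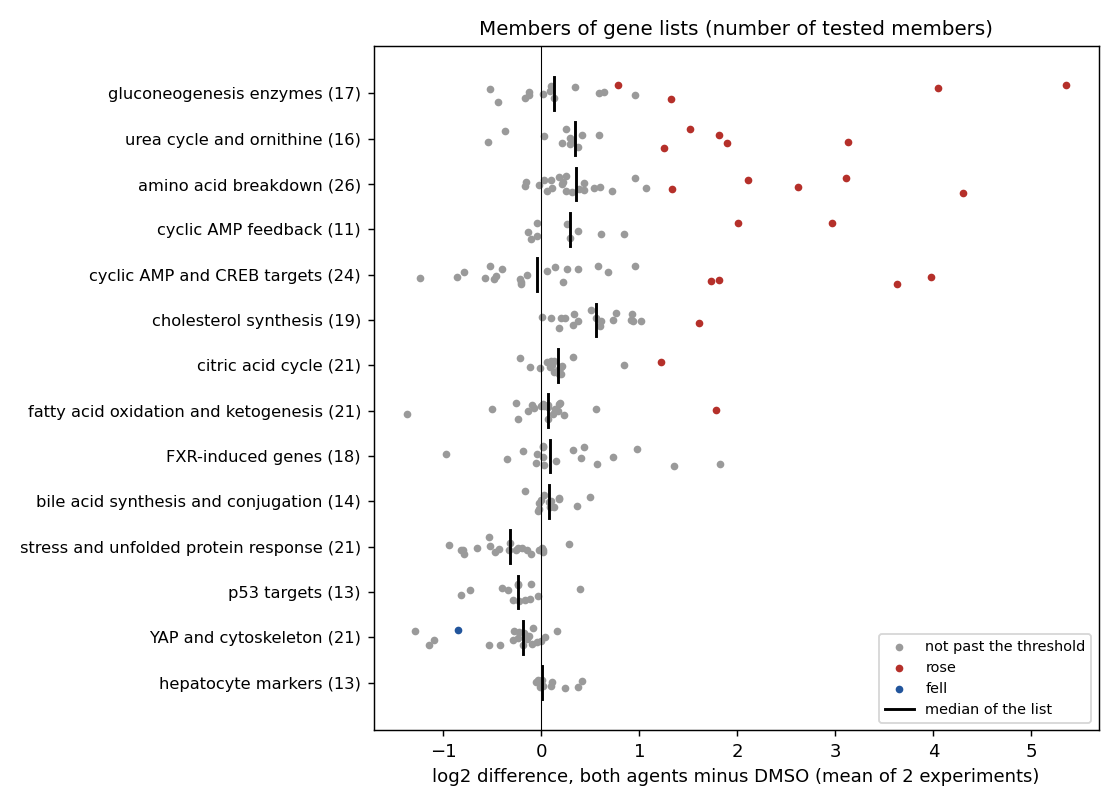
Log2 difference between both agents and DMSO (horizontal axis) for each tested member of 14 gene lists, with members that rose in red, those that fell in blue, those not past the threshold in grey and a bar at the list's median. Rises of gluconeogenesis, ornithine and amino acid genes reach far to the right, up to 5.35. The FXR-induced, bile acid synthesis, stress response, p53 and hepatocyte marker lists have no coloured point.

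Of the 15 largest rises, predicted genes and unnamed expressed sequences apart, 2 were in no list. Tpbgl, which encodes a trophoblast glycoprotein-like protein, was at 3.72 and 3.88 with DMSO and at 5.92 and 5.97 with both agents (2.14, SE 0.11, adjusted p = 0.00116). Palmd, which encodes palmdelphin, went from 5.93 and 6.49 to 8.32 and 8.23 (2.07, SE 0.20, adjusted p = 0.0113). Both passed without the block, with adjusted p-values of 0.00301 and 0.0281. Of all 102 calls, 29 were in at least 1 list and 73 in none.

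In fuel metabolism, single genes passed in lists that otherwise stayed below the threshold. Cpt1a, the carnitine palmitoyltransferase that admits fatty acids to mitochondria, was at 7.47 and 7.30 with DMSO and at 9.30 and 9.04 with both agents (1.79, SE 0.13, adjusted p = 0.00425, and 0.0676 without the block). It was the 1 rise of 21 tested members of the fatty acid oxidation and ketogenesis list, whose median was 0.07. Angptl4, a lipase inhibitor and lipid-sensing target, differed by -1.37 in the same list (SE 0.23, adjusted p = 0.0678). Acacb, the carboxylase whose product inhibits Cpt1a, rose as well, from 4.59 and 5.23 to 5.96 and 6.47 (1.30, SE 0.14, adjusted p = 0.016, and 0.263 without the block).

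Pmvk, which phosphorylates phosphomevalonate in cholesterol synthesis, rose from 5.75 and 6.08 to 7.49 and 7.57 (1.61, SE 0.15, adjusted p = 0.0106). It was the 1 call among 19 tested members of the cholesterol synthesis list, of which up to 7 were called in the alternatives. All 19 had a positive difference, against 6289 of 13845 tested genes, 11 were higher at an unadjusted p below 0.05, and the median was 0.55. Hmgcs1, the synthase that makes hydroxymethylglutaryl-CoA, was at 8.61 and 8.95 with DMSO and at 9.81 and 9.79 with both agents, and its 1.01 had an adjusted p of 0.0936. Cyp51, a sterol demethylase, differed by 0.93 (adjusted p = 0.0804). Hmgcs1 passed in 4 and Cyp51 in 5 of 18 alternatives.

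Fh1, the fumarase of the citric acid cycle, rose from 8.61 and 8.67 to 9.82 and 9.90 (1.22, SE 0.13, adjusted p = 0.0151). Of 21 tested members of that cycle 1 rose, 18 had a positive difference and the median was 0.17. Idh3a, a subunit of isocitrate dehydrogenase, differed by 0.85 (adjusted p = 0.0629) and passed in 5 of 18 alternatives. Beyond Ppargc1a itself, 0 of the other 16 tested members of the PGC-1 and mitochondrial list passed, with 0 higher and 1 lower at an unadjusted p below 0.05, and the respiratory coactivator gene Pprc1 differed by -0.44.

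Transporters of bile acids and organic anions gave 2 rises of 12 tested members, with a median of 0.07. Slco1a4, an uptake carrier of bile acids and organic anions, was at 5.39 and 5.62 with DMSO and at 7.04 and 7.37 with both agents (1.70, SE 0.14, adjusted p = 0.00579, and 0.0676 without the block). Slco2b1, a related carrier, was at 4.40 and 4.76 and rose to 6.22 and 6.07 (1.56, SE 0.16, adjusted p = 0.0154). Its other probe set (17480590) was below the filter level on these 4 arrays, at 2.58 to 2.79, and with the mean of the probe sets the rise was 0.81 (adjusted p = 0.0321).

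The FXR-induced genes were followed one by one because the comparison contains the receptor's agonist. Of the 18 tested members 13 had a positive difference (72.2%, against 45.4% of all tested genes), and the median was 0.09. Both combined arrays lay above both DMSO arrays in 7 members and below them in 3, against 16.9% and 21.9% of all tested genes. Nr0b2, the repressor SHP, was at 3.52 and 3.63 with DMSO and at 3.94 and 3.87 with both agents (0.33, SE 0.16, adjusted p = 0.483), near the filter level of 3.13 to 3.27. Its combined arrays were both above its DMSO arrays, as for 16.9% of all genes. Abcb11, the bile salt export pump, was at 6.64 and 6.61 with DMSO, at 5.52 and 6.19 with glucagon alone, at 7.69 and 7.05 with GW4064 alone and at 6.07 and 6.48 with both. The combined arrays thus lay below the DMSO arrays (-0.35, SE 0.29, adjusted p = 0.768) and, within each experiment, between the arrays of the single agents.

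Abcb4, which exports phospholipid into bile, was at 6.90 and 7.48 with DMSO and at 7.67 and 7.59 with both agents (0.44, SE 0.19, adjusted p = 0.427). Nr1i2, which encodes the pregnane X receptor, had the largest difference of the list. It was at 5.97 and 6.62 with DMSO, at 6.58 and 7.33 with glucagon, at 7.30 and 6.89 with GW4064 and at 8.11 and 8.13 with both. The combined arrays were the highest of the 8 and nearly equal, and the difference of 1.83 (SE 0.28) had an adjusted p of 0.0546. Nr1i2 passed in 6 of 18 alternatives, among them the fit of only the 2 groups (adjusted p = 0.00159) and that without the GW4064 array of experiment 2 (adjusted p = 0.0094), and in those 2 fits Insig2, Apoa5, Sdc1 and Nedd4l, the last named after this was seen, passed as well. With glucagon alone Nr1i2 differed from DMSO by 0.66 and with GW4064 alone by 0.80, comparisons that share the DMSO arrays. With both agents Insig2 differed from DMSO by 0.97, Apoa5 by 0.74 and Sdc1 by 0.57, none of them called in the reported fit.

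Osgin1, an oxidative stress-induced growth inhibitor, differed from DMSO by -1.90 with glucagon and by 0.74 with GW4064. It was at 10.70 and 9.43 with DMSO, 8.34 and 7.98 with glucagon, 11.36 and 10.24 with GW4064 and 9.25 and 8.94 with both. The combined arrays lay below the DMSO array of their own experiment, and the difference of -0.97 (SE 0.26) had an adjusted p of 0.208. The receptor gene Nr1h4 itself was at 6.76 and 6.48 with DMSO and at 5.81 and 5.92 with both agents (-0.76, SE 0.19, adjusted p = 0.188), with both combined arrays below both DMSO arrays. Nr1h4 passed as a fall in 3 of 18 alternatives. Of bile acid synthesis, 0 of 14 tested members passed, with 2 higher and 0 lower at an unadjusted p below 0.05, and the sterol hydroxylase Cyp8b1 differed by 0.18. Cyp7a1, the hydroxylase that sets the pace of bile acid synthesis, was not tested. Its signal was at most 3.38 and did not exceed the filter level on 2 or more arrays.

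**Figure D4:**
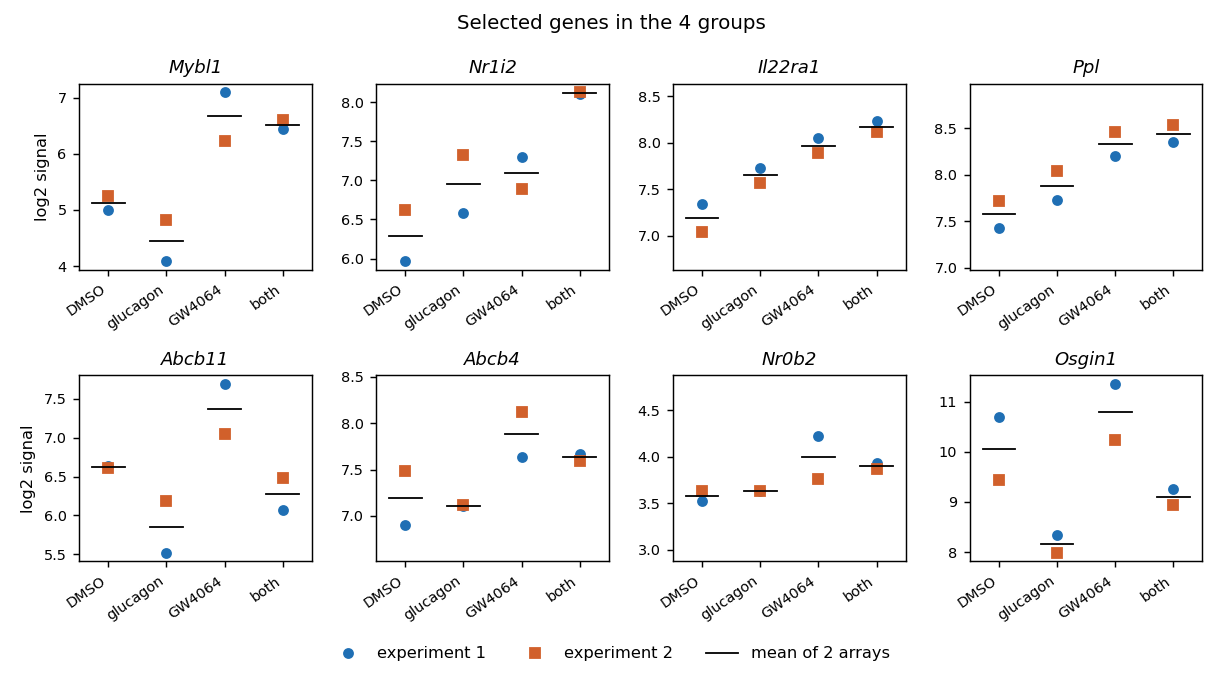
Log2 signal of 8 genes on all 8 arrays, by treatment, with experiment 1 as circles, experiment 2 as squares and bars at the mean of 2 arrays; each panel has its own vertical axis, which does not start at 0. In the Nr1i2 panel the combined arrays, at 8.11 and 8.13, are above all others, and in the Abcb11 panel the combined array of each experiment lies between that experiment's arrays of the single agents.

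Set against glucagon alone, a difference whose size uses no DMSO array although the spread is estimated over all 8, the combined treatment gave 0 calls in limma (0%), with 194 genes at an unadjusted p below 0.05 (1.4%) and a smallest adjusted p of 1.00. The test of whether the joint difference departs from the sum of the single ones gave 0 calls as well, with 332 at an unadjusted p below 0.05 (2.4%). Without the GW4064 array of experiment 1 this departure was called for 261 genes, in a fit where the GW4064 group rests on the array that stands apart, and without that array it was called for 0, with 449 at an unadjusted p below 0.05. For Pck1 the difference from glucagon alone was 0.09, with a 95% interval of -0.54 to 0.72, and for G6pc it was -0.06 (-0.52 to 0.39). Slc25a15 differed by 0.15 (-0.13 to 0.43) and Socs2 by -0.14 (-0.63 to 0.36). These intervals include 0 and also differences of about the size that single genes showed, so equality of the treatments is not shown. Of the 71 genes that rose against DMSO, 21 were higher and 50 lower with both agents than with glucagon alone. Of the 31 that fell, 17 were higher and 14 lower. The share over all tested genes was not counted, and their median difference from glucagon alone was -0.0037. As the same combined arrays chose the genes that rose and fell, these splits are a description and not a test. The absolute difference had a median of 0.12 over the 102 genes and 0.07 over all tested genes, and the largest among the 102 was 0.56, in Ppl.

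Of the 102 genes, 8 had an unadjusted p below 0.05 in limma against glucagon alone, beside 194 of 13845 tested genes (1.4%). After adjustment 0 passed. The same combined arrays and the same estimate of the spread chose the 102 genes, so this count is a description and not a test. Ppl, which encodes the desmosomal protein periplakin, was at 7.43 and 7.72 with DMSO, 7.73 and 8.04 with glucagon, 8.20 and 8.46 with GW4064 and 8.35 and 8.53 with both. It rose against DMSO by 0.87 (adjusted p = 0.0261, and 0.263 without the block), the difference being 0.31 with glucagon alone and 0.76 with GW4064 alone. Il22ra1, a subunit of the interleukin 22 receptor, was at 7.34 and 7.04 with DMSO, 7.73 and 7.56 with glucagon, 8.05 and 7.89 with GW4064 and 8.23 and 8.11 with both, and rose by 0.99 (adjusted p = 0.0167, and 0.116 without the block). In both genes the arrays of the combined treatment lay above the glucagon arrays, with unadjusted p-values of 0.00126 and 0.00204. The departures from additivity were -0.20 for Ppl and -0.25 for Il22ra1, with neither called.

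Ppargc1a and Slco2b1 were also higher with both agents than with glucagon alone, by 0.46 (unadjusted p = 0.0142) and 0.43 (unadjusted p = 0.0361). With GW4064 alone they differed from DMSO by -0.13 and -0.15. Oat was lower than with glucagon alone (-0.36, unadjusted p = 0.032), as were Arg1 (-0.33, unadjusted p = 0.0379) and Tbc1d8 (-0.40, unadjusted p = 0.0263), the last named after its values were seen.

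The smallest p of this test was that of Mybl1, a transcription factor of the MYB family. It was at 5.003 and 5.25 with DMSO, 4.09 and 4.82 with glucagon, 7.10 and 6.24 with GW4064 and 6.44 and 6.60 with both, so the arrays with GW4064 were all above those without. The difference from glucagon alone was 2.06 (SE 0.34, unadjusted p = 0.000595, adjusted p = 1.00) and the difference from DMSO was 1.39 (adjusted p = 0.167). Against DMSO Mybl1 passed in 3 of 18 alternatives. When only the glucagon and combined arrays were fitted, 7 genes passed, Mybl1 with an adjusted p of 0.00105 and Osgin1 with 0.0147 among them. That fit has 1 residual degree of freedom of its own and leans on the spread of the other genes.

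Socs2, the suppressor of cytokine signalling that growth hormone induces as its own brake (probe set 17274184), was at 7.31 and 6.67 with DMSO and at 4.87 and 4.22 with both agents. The difference was -2.45 in each experiment (SE 0.21, adjusted p = 0.00702), the groups did not overlap, and without the block the adjusted p was 0.167. A second, dimmer probe set of Socs2 (17244486) was at 3.73 and 3.62 with DMSO and at 3.46 and 3.52 with both agents. With the mean of both probe sets the difference was -1.31 and did not pass (adjusted p = 0.0501). It was the 1 fall among 21 tested members of the insulin and growth hormone list, in which Irs2 was the 1 rise. Igf1, the growth hormone target of liver, differed by 0.52 (adjusted p = 0.15).

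Slc4a11, a membrane transporter of the SLC4 family, fell by 1.98 on the log2 scale (SE 0.12, adjusted p = 0.00205), from 8.49 to 6.49 in experiment 1 and from 6.25 to 4.30 in experiment 2. Its DMSO arrays differed by more than the effect, so the groups overlapped and the adjusted p was 0.936 without the block. Fam171b showed the same feature, with 7.57 to 6.54 and 5.72 to 4.40 (-1.17, adjusted p = 0.0427, and 1.00 without the block).

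Several receptors at the cell surface were lower. Plaur, the receptor of the plasminogen activator urokinase, fell from 9.54 and 8.27 to 7.80 and 7.15 (-1.43, SE 0.20, adjusted p = 0.039). Osmr, of the oncostatin M receptor, fell from 6.14 and 4.97 to 4.53 and 3.84 (-1.38, SE 0.15, adjusted p = 0.016). Il17ra, of the interleukin 17 receptor, fell from 7.74 and 7.18 to 6.48 and 6.30 (-1.07, SE 0.16, adjusted p = 0.0468). In these 3 genes both combined arrays lay below both DMSO arrays, and the adjusted p without the block was 0.746, 0.67 and 0.312.

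Slc40a1, the iron exporter ferroportin, fell from 8.52 and 8.43 to 7.12 and 7.37 (-1.23, SE 0.13, adjusted p = 0.0155), and with 0.056 it came closest to the threshold without the block among the 15 largest falls. Clic1, an intracellular chloride channel protein, fell by 1.23 (SE 0.12), Plscr1, a phospholipid scramblase, by 1.20 (SE 0.13), Dhrs9, a retinol dehydrogenase of the short-chain family, by 1.19 (SE 0.16) and the junctional gene Jcad by 1.15 (SE 0.12). The remaining falls among the 15 largest were in Peak1 (-0.97), Pithd1 (-0.95), Zfp945 (-0.94) and Fyb2 (-0.92). Fyb2 was higher than with glucagon alone, by 0.46 (unadjusted p = 0.00576), the 1 fall that differed so.

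**Figure D5:**
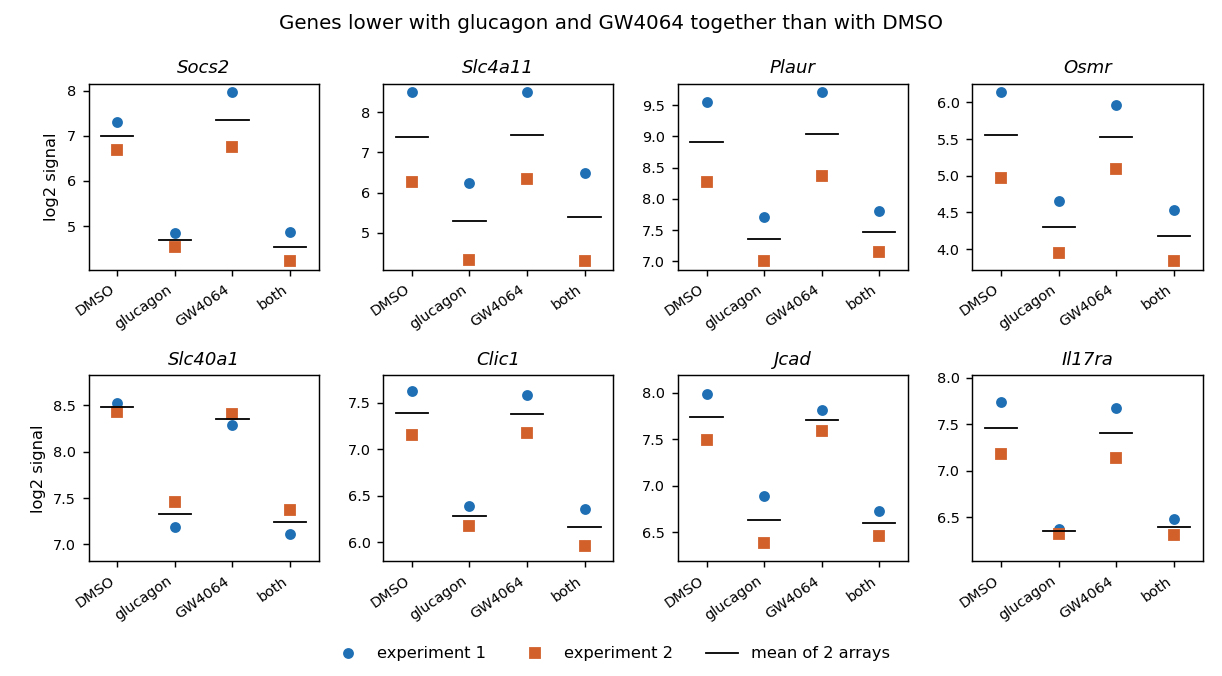
Log2 signal of 8 genes that fell, in DMSO, glucagon, GW4064 and combined arrays, with experiment 1 as circles, experiment 2 as squares and bars at the mean of 2 arrays; each panel has its own vertical axis, which does not start at 0. For Socs2 the combined arrays, at 4.87 and 4.22, lie below both DMSO arrays, and for Slc4a11 the groups overlap, at 6.49 and 4.30 against 8.49 and 6.25.

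Lists with mostly lower values had few calls or 0. Of 21 tested members of the YAP and cytoskeleton list, 18 had a negative difference, 6 were lower at an unadjusted p below 0.05 and 1 fell, Wwtr1, which encodes the coactivator TAZ (7.32 and 6.76 to 6.47 and 5.91; -0.85, adjusted p = 0.0321, and 0.719 without the block). The YAP targets Ankrd1 and Ccn2 differed by -1.28 and -1.10 (adjusted p = 0.322 and 0.296). In the stress and unfolded protein response list 0 of 21 passed, 9 were lower and 0 higher at an unadjusted p below 0.05, and the median was -0.32. In 6 of 18 alternatives between 1 and 5 members were called lower, Nupr1 in 6 and Ddit3 in 5 of them. Ddit3, the stress factor CHOP, was at 8.98 and 9.03 with DMSO and at 7.97 and 8.17 with both agents (-0.94, adjusted p = 0.0635). Among 13 tested p53 targets 0 passed, 4 were lower at an unadjusted p below 0.05, 12 had a negative difference and the median was -0.24. Eda2r, a death-domain receptor in that list, was at 6.74 and 6.79 with DMSO and at 5.91 and 6.17 with both agents (-0.73, adjusted p = 0.0546), and it passed in 5 of 18 alternatives.

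Markers of other liver cells were followed as a check. Of the tested markers of Kupffer cells and macrophages (14), sinusoidal endothelium (12), stellate cells and fibroblasts (4), cholangiocytes (4) and lymphocytes and neutrophils (4), 0 passed in limma, and at an unadjusted p below 0.05 the counts were 0, 1, 0, 2 and 0. In 3 of 18 alternatives 1 cholangiocyte marker, Sox9, was called lower. The summed log2 signals of all 16 Kupffer cell and macrophage markers were 66.1 and 68.6 with DMSO and 66.6 and 68.8 with both agents. Those of the 16 endothelial markers were 68.2 and 62.3 with DMSO and 67.3 and 61.5 with both agents. In each list 3 markers were at or below the filter level on all 4 arrays. Endothelial sums thus differed more between the experiments than between the treatments. Of the stellate and fibroblast markers 9 of 14, of the lymphocyte and neutrophil markers 9 of 13, and of the cholangiocyte markers 4 of 9 were at or below the filter level on all 4 arrays. The part of other cells in the 102 calls was not tested.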

How the data were processed

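Gene expression was measured on 8 single-channel arrays, of which the 2 DMSO arrays and the 2 arrays with both agents form the comparison. The log2 signals were used as the authors deposited them; the arrays were processed with GeneSpring per the labels, from 300 ng of RNA each, and its version and the way signals were corrected, summarised and normalized were not given in the sources used here. That the scale is log2 was read from the range of the values. Of 41345 probe sets, 23521 had 1 gene symbol in the platform annotation, 1814 had several and 16010 had none, and those with 1 symbol were tested. Probe sets had to exceed the 40th percentile of an array on 2 or more arrays, a filter level of 3.13 to 3.27, and the brightest one stood for its gene, which left 13845 genes. The number of arrays limits the precision.

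Differences were fitted with limma 3.58.1 in R 4.3.3, with 1 mean per group over all 8 arrays and the experiment as a block (3 residual and 3.58 prior degrees of freedom). Two-sided p-values got the Benjamini-Hochberg adjustment across the 13845 genes of each contrast. The block is in the reported fit because the comparison is defined as paired by experiment: the titles number the experiments, each a pool of cells divided over the treatments. Deviations from the group means correlated at 0.350 to 0.620 between arrays of the same experiment, 0.497 for DMSO and both agents. With the block, the p-values rest on how far the treatment differences varied between the 2 cell pools, estimated over all groups. The difference in level between the pools is taken out and does not enter them. Paired levels are given for experiment 1 and then experiment 2.

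The members, the 36 gene lists and the alternatives were chosen with earlier results of these data known. Named were, among calls with equal sign in both experiments, the 15 with the largest rise and the 15 with the largest fall, from each list up to 4 members by smallest p, the 5 smallest p-values of each other contrast, and a panel of 24 genes; predicted genes (5 rises, 1 fall) were counted and not named. A fold against an array at the filter level is a lower limit. The fit was also run on simulated arrays with known changes. Their noise was independent between genes and no array deviated, so nothing is concluded from them about the calls in these data. Promoter windows of 250 bases came from RefSeq, matched by symbol. No measured column was left unused (0).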

Additional observations from a re-analysis of the deposited data

How the results depend on the processing

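The count of 102 genes (71 up, 31 down; 29 of them in a gene list) moved with how the spread was estimated. Without the block on the replicate number of the paired experiments it was 17 (17 up, 0 down; 13 in lists), with the experiment as a random effect 48 (41 and 7), with a trended and robust variance 177 (110 and 67; 48 in lists), and with only the 2 groups in the fit 475 (227 and 248; 80 in lists), where rises made up 47.8% of the calls against 69.6%. Without the GW4064 array of experiment 2 it was 342 (170 and 172; 61 in lists), and the same without that of experiment 1, since the remaining array then has a mean of its own. That array left out without a block gave 24 (23 and 1; 16 in lists). Leaving out the DMSO array of experiment 1 gave 10 (10 and 0; 8 in lists) and that of experiment 2 gave 13 (12 and 1; 11 in lists), the combined array of experiment 1 gave 6 (6 and 0; 6 in lists) and that of experiment 2 gave 7 (7 and 0; 6 in lists), and either glucagon array 48 (41 and 7). With a filter at the 60th percentile 49 genes fell. Quantile normalization (119), median centring (79), no filter (99) and the mean of probe sets (101) stayed within 1.5 times, but that mean lowered Socs2 (-1.31, not called), Rgs2 (1.65) and Slco2b1 (0.81), whose dimmer probe sets moved less. All 102 genes kept their sign in each of these 18 fits. Of the 43 genes that passed and were named by size, list or panel, 28 did not pass without the block. With the experiment as a random effect 17 of the 43 did not pass. Of the other genes named by those rules, 38 passed with only the 2 groups in the fit and 16 with a trended and robust variance. The test against glucagon alone gave 7 calls with only the 2 groups, and the departure from additivity 261 without the GW4064 array of experiment 1. The settings with GW4064 replicate 1, the glucagon replicates or GW4064 replicate 2 without a block were chosen after seeing the data. Except for what the construction shows, the causes were not tested.

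Direction changed for uncalled marker genes with differences near 0: with quantile normalization Acta2 (0.011) and Alb (-0.0089), with median centring Alb (-0.016) and Reln (-0.0057), without the DMSO array of experiment 1 Reln (-0.0033), without that of experiment 2 Acta2 (0.018), Dcn (0.16), Epcam (-0.063) and Pdgfrb (0.15), without the combined array of experiment 1 Dcn (0.14), Hnf4a (-0.072), Ly6g (-0.040) and Reln (-0.11), and without that of experiment 2 Acta2 (0.016), Alb (-0.022), Nkg7 (-0.024) and Pdgfrb (0.030). Genes near the filter level, such as Nr0b2, have little signal over background, which limits what can be seen of them.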

Other observations

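Some rises and falls belong to none of the gene lists, and those below were picked after their values were seen. Among the rises, Gpcpd1, a phosphodiesterase that releases choline from glycerophosphocholine, was at 7.77 and 8.40 with DMSO and at 9.60 and 10.18 with both agents (1.80, SE 0.14, adjusted p = 0.00579, and 0.112 without the block). Dmgdh, the dimethylglycine dehydrogenase of choline breakdown, rose by 1.09 (SE 0.14, adjusted p = 0.0286) and Acmsd, a decarboxylase of tryptophan breakdown, by 1.05 (SE 0.10, adjusted p = 0.0128). Mettl7b, a methyltransferase-like gene, rose from 7.52 and 7.24 to 9.46 and 8.99 (1.84, SE 0.13) and passed without the block too, as did the atypical chemokine receptor gene Ackr3 (1.58, SE 0.17). Gys1, the glycogen synthase best known from muscle, rose by 1.00 (SE 0.12, adjusted p = 0.0263), whereas the liver form Gys2 differed by 0.65 (adjusted p = 0.182). Both combined arrays lay above both DMSO arrays in these 6 genes that rose.

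Among the falls, Smox, the spermine oxidase, was at 7.80 and 7.81 with DMSO and at 6.97 and 7.01 with both agents (-0.82, SE 0.10, adjusted p = 0.0271, and 0.0676 without the block). Txnip, which encodes the thioredoxin-interacting protein, fell from 6.52 and 6.77 to 5.60 and 5.95 (-0.87, SE 0.12, adjusted p = 0.039). Lrrc8a, a subunit of the volume-regulated anion channel, fell by 0.91 (SE 0.11, adjusted p = 0.0263), with both combined arrays below both DMSO arrays. Msn, which encodes the membrane-cytoskeleton linker moesin, fell by 0.91 as well (SE 0.11, adjusted p = 0.0271), but its pools differed by more than that and its groups overlapped: it went from 9.53 to 8.51 in experiment 1 and from 8.34 to 7.53 in experiment 2.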
